A study of Homo sapiens with 3 samples.

Results

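The miRNAs described here were the strands of miR-15a, miR-15b, miR-16 and miR-195, taken as every listed mature miRNA name with one of these numbers and any copy or arm suffix. Of 1921 listed names, 9 belonged to them. At least 1 read was counted in any library for 8 of the 9 names, 6 were detected in all 3 libraries, and 5 had a mean of at least 10 CPM (reads of the miRNA per 1000000 counted reads). Small RNA was sequenced from 3 strains of HCCLM3, a human hepatocellular carcinoma cell line with metastatic capacity, all grown in DMEM. The parent strain was labelled low metastasis, subclone1 was labelled with a higher, lung-specific metastatic ability, and subclone2 with a dual ability to reach lung and celiac lymph node. The study describes clonal lines grown by limiting dilution from lung and lymph node metastases of HCCLM3-R, an HCCLM3 derivative with a red fluorescent protein, but the labels do not say which clones these libraries are, and since HCCLM3 is described there as highly metastatic, low is used here only as a label. Libraries were built from 1 ug of Trizol-extracted total RNA by adapter ligation (Illumina TruSeq Small RNA). Each strain had 1 library, with totals of 7902438 (parent), 3570864 (subclone1) and 4568075 (subclone2) counts, so no test between strains was possible, no p-value is given, and a difference between strains cannot be told apart from one between cultures or preparations. In such bulk RNA, fewer cells with a miRNA and less of it per cell cannot be told apart either.

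A miRNA is cut from a hairpin precursor with a 5p and a 3p arm. Usually one strand, the guide, is loaded into an Argonaute protein and the other, the passenger, is degraded. Bases 2 to 8 of the loaded strand, the seed, pair with target messenger RNAs and lower their stability and translation. The miR-15/16 family is known for repressing G1 cyclins, their kinases and the survival factor BCL2. Its copy on chromosome 13 lies in DLEU2, a region often lost in chronic lymphocytic leukaemia, and the family is widely described as restraining proliferation.

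The 9 mature sequences, from RefSeq (GRCh38.p14), are shown because the 5p strands share a seed while the 3p strands allow the gene copies to be told apart. They are written 5′ to 3′ with the seed in capitals.
hsa-miR-15a-5p: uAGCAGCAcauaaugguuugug
hsa-miR-15b-5p: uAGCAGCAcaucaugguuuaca
hsa-miR-16-5p: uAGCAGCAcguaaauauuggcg
hsa-miR-195-5p: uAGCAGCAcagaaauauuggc
hsa-miR-15a-3p: cAGGCCAUauugugcugccuca
hsa-miR-15b-3p: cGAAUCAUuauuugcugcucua
hsa-miR-16-1-3p: cCAGUAUUaacugugcugcuga
hsa-miR-16-2-3p: cCAAUAUUacugugcugcuuua
hsa-miR-195-3p: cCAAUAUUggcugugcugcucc
All 4 of the 5p strands carried the 1 seed AGCAGCA. The 5 of the 3p strands carried 4 seeds, since hsa-miR-16-2-3p and hsa-miR-195-3p shared CAAUAUU. Counted from 1 at the 5′ end, hsa-miR-15a-5p and hsa-miR-15b-5p matched at 18 of 22 bases and differed by A12C, G20A, U21C and G22A. hsa-miR-16-5p and hsa-miR-195-5p matched at 19 of 21 aligned bases and differed by G10A and U11G. How the submitters assigned reads with mismatches is not given in the sources used here, so a read of abundant hsa-miR-16-5p with errors at both positions could have been counted as hsa-miR-195-5p.

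The family lies at 3 loci, each with a pair of hairpins. On the minus strand of chromosome 13, MIR15A (chr13:50049119-50049201) overlaps an exon and MIR16-1 (chr13:50048973-50049061) an intron of the non-coding gene DLEU2, with 57 bases between them. On the plus strand of chromosome 3, MIR15B (chr3:160404588-160404685) and MIR16-2 (chr3:160404745-160404825) lie in introns of SMC4, which encodes a condensin subunit, with 59 bases between them and the gene AC079594.2 on the opposite strand. On the minus strand of chromosome 17, MIR195 (chr17:7017615-7017701) and MIR497 (chr17:7017911-7018022) lie 209 bases apart in exons of the host gene MIR497HG. The mature hsa-miR-16-5p is the same from MIR16-1 and MIR16-2, so its counts cannot be divided between chromosomes 13 and 3. The 2 hairpins of chromosome 3 are shown, with the 5p and then the 3p mature strand in capitals, because the strand differences described further on concern them.
MIR15B: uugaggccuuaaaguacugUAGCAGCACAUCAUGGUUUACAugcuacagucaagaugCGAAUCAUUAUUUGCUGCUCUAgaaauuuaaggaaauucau
MIR16-2: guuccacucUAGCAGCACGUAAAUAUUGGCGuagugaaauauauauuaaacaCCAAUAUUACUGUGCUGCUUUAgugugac

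Of the 5p strands, hsa-miR-16-5p had the most reads in every library. It was counted 2479 times in the parent, 937 times in subclone1 and 1011 times in subclone2. These counts were 314 CPM in the parent (exact 95% binomial interval, 301 to 326), 262 CPM in subclone1 (246 to 279.8) and 221 CPM in subclone2 (208 to 235). On this scale the parent was highest and subclone2 lowest without overlap of the intervals, which cover counting error only, but with TMM factors the log2 difference between the subclones was -0.01, so their order depends on the scaling. By count it ranked 56 of 743 detected names in the parent, 64 of 670 in subclone1 and 66 of 675 in subclone2. Ligation favours some RNA ends, so ranks and shares of different miRNAs describe reads, not molecules.

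The second of the 5p strands was hsa-miR-15b-5p, the chromosome 3 guide. It had 1017, 381 and 440 counts in the parent, subclone1 and subclone2, equal to 129 CPM (121 to 137), 106.7 CPM (96.3 to 118) and 96.3 CPM (87.5 to 106). The parent was again highest, and the intervals of the subclones overlapped. hsa-miR-15a-5p, the guide from chromosome 13, had 235, 83 and 96 counts, or 29.7 CPM (26.1 to 33.8), 23.2 CPM (18.5 to 28.8) and 21.0 CPM (17.02 to 25.7). In this strand the parent lay above subclone2 without overlap, while the interval of subclone1 overlapped both. hsa-miR-195-5p, from chromosome 17, was near the limit of detection with 13, 6 and 11 counts, or 1.65 CPM (0.876 to 2.81), 1.68 CPM (0.617 to 3.66) and 2.41 CPM (1.20 to 4.31). Its level could not be separated between the libraries at this depth.

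The 3p strands were fewer and did not follow 1 order. hsa-miR-16-2-3p, made only from MIR16-2, had 203, 52 and 90 counts in the parent, subclone1 and subclone2, or 25.7 CPM (22.3 to 29.5), 14.6 CPM (10.9 to 19.1) and 19.7 CPM (15.8 to 24.2). It was lowest in subclone1, though the intervals of the subclones overlapped. hsa-miR-15b-3p, from the neighbouring MIR15B, had 146, 60 and 29 counts, or 18.5 CPM (15.6 to 21.7), 16.8 CPM (12.8 to 21.6) and 6.35 CPM (4.25 to 9.12). It was lowest in subclone2, whose interval overlapped neither of the others. The remaining 3p strands were at or near 0. hsa-miR-16-1-3p was counted 0, 1 and 0 times, hsa-miR-195-3p 0, 1 and 1 times, and hsa-miR-15a-3p 0 times in each library. A count of 0 allowed a level of up to 0.380 CPM in the parent, 0.840 CPM in subclone1 and 0.657 CPM in subclone2 (3 counts of the total).

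**Figure D1:**
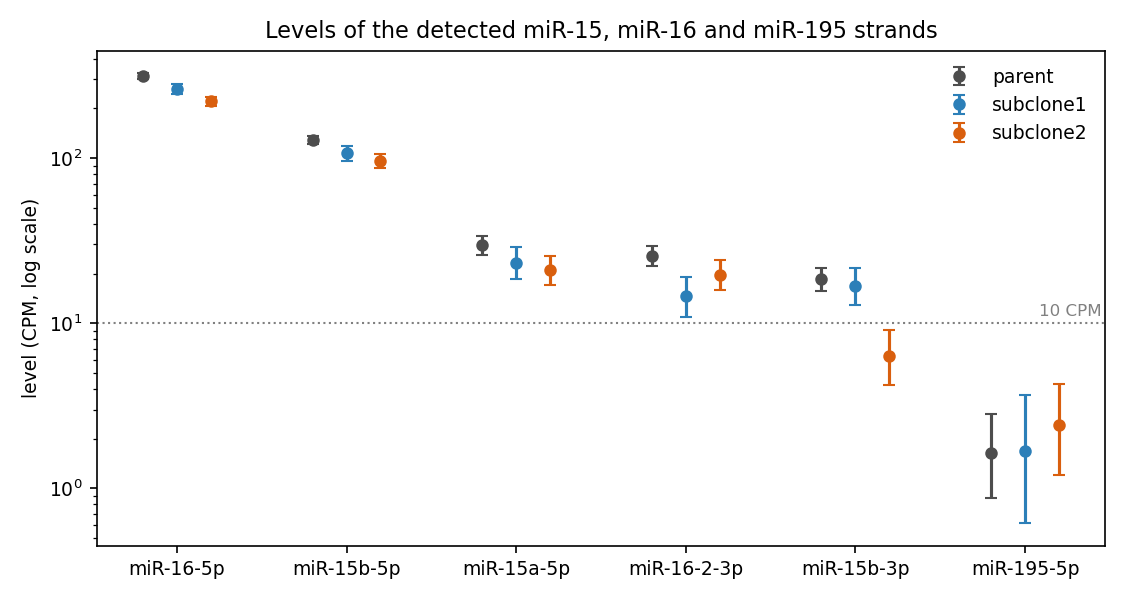
Level of the 6 strands detected in all libraries, in CPM on a log axis, with 1 point per library and exact 95% binomial intervals that cover counting error only. The 3 guide strands hsa-miR-16-5p, hsa-miR-15b-5p and hsa-miR-15a-5p were highest in the parent, hsa-miR-15b-3p lay below the dotted line at 10 CPM in subclone2, and the hsa-miR-195-5p intervals overlapped.

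Subclone1 was compared with the parent to ask which strands went with the lung-specific label. A ratio was called when it was at least 2-fold (a log2 ratio of at least 1 in size, after adding 0.5 counts) and its exact 95% conditional binomial interval excluded a ratio of 1. A call compares libraries, not conditions. None of the 5 strands kept at 10 CPM was called in either direction, beside 3.12% of the 192 kept miRNAs called lower and 9.90% called higher. The log2 ratio was -0.26 for hsa-miR-16-5p (interval -0.37 to -0.15), -0.27 for hsa-miR-15b-5p (-0.44 to -0.10) and -0.35 for hsa-miR-15a-5p (-0.73 to 0.01). All 3 guides lay below the parent by less than 2-fold, and the interval of hsa-miR-15a-5p on the library total included no difference. With TMM factors its ratio was -0.41, a shift larger than the 0.01 by which its upper bound passed 0. Whether that interval included no difference thus depended on the scaling. On the library total, the ratio farthest from 0 was that of hsa-miR-16-2-3p at -0.81 (-1.29 to -0.37), position 10 of 192 from the lowest. hsa-miR-15b-3p, at -0.13 (-0.60 to 0.31), was not separable from the parent. On this scale, intervals lay wholly below a ratio of 1 for 3 of the 5 strands and for 30.2% of all kept miRNAs. Log2 ratios were below 0 for 5 of 5 strands and for 92 of 192 miRNAs. The median over the 5 strands was -0.27, compared with 0.02 over all kept miRNAs. Here and in the comparisons below, the 5 strands are not separate observations. hsa-miR-15b-5p, hsa-miR-15b-3p and hsa-miR-16-2-3p come from neighbouring hairpins on the same chromosome, and hsa-miR-16-5p can come from there too.

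Subclone2 was compared with the parent for the dual lung and lymph node label. hsa-miR-15b-3p was called lower with a log2 ratio of -1.52 (-2.17 to -0.96), from 146 counts in the parent to 29 in subclone2 at a smaller library total. It was 1 of 5 kept strands called lower, beside 4.81% of 187 kept miRNAs (5.88% were called higher), and position 5 of 187 from the lowest. It passed the minimum through the parent, in which it was higher. The other 4 strands were lower by less than 2-fold. Their log2 ratios were -0.50 for hsa-miR-16-5p (-0.61 to -0.40), -0.42 for hsa-miR-15b-5p (-0.58 to -0.26), -0.50 for hsa-miR-15a-5p (-0.86 to -0.15) and -0.38 for hsa-miR-16-2-3p (-0.76 to -0.02). On the library total, all 5 intervals lay below a ratio of 1, as did those of 47.6% of all kept miRNAs. The median of the 5 strands was -0.50 and that of all kept miRNAs -0.15. With TMM factors the interval of hsa-miR-15a-5p was -0.69 to 0.02. The ratio of hsa-miR-16-2-3p was then -0.21, a shift larger than the distance of its upper bound from 0. With TMM factors both intervals therefore included no difference. This comparison and the previous one share the parent library, so the lower values in both subclones are not independent of each other.

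The subclones were then compared directly, with subclone2 over subclone1. hsa-miR-15b-3p was called lower here too, with a log2 ratio of -1.39 (-2.10 to -0.74) and position 5 of 191. It passed the minimum through subclone1, in which it was higher. Of the 191 kept miRNAs, 4.19% were called lower and 1.57% higher. The call of hsa-miR-15b-3p here and that against the parent share the same 29 reads in subclone2, so they are not independent of each other. hsa-miR-16-2-3p had the opposite sign at 0.43 (-0.07 to 0.96), position 182 of 191, although its interval on the library total included no difference. With TMM factors its ratio was 0.66, a shift larger than the distance of its lower bound from 0. Whether its interval included no difference thus depended on the scaling. On the library total, the guides hsa-miR-16-5p, hsa-miR-15b-5p and hsa-miR-15a-5p had ratios of -0.25 (-0.38 to -0.12), -0.15 (-0.35 to 0.05) and -0.15 (-0.58 to 0.30). On this scale, intervals were wholly below a ratio of 1 for 2 of 5 strands and for 44.0% of all kept miRNAs. The strand median of -0.15 was close to the median of all kept miRNAs, -0.17. Scaling with TMM factors moved the median of all kept miRNAs by 0.23 and the strand median to 0.08, so no direction between the subclones is given for the guide strands.

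**Figure D2:**
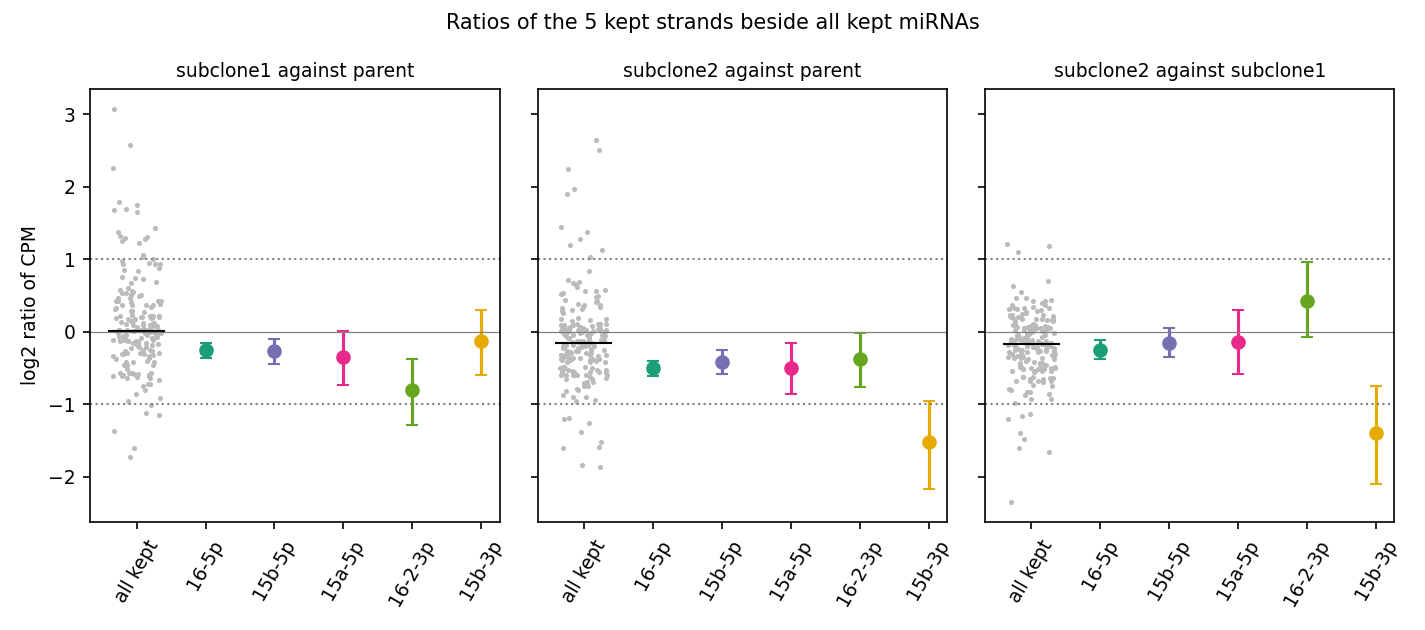
Log2 ratio of CPM for the 5 kept strands in each comparison, with exact 95% conditional binomial intervals (counting error only), beside all kept miRNAs as grey points with their median as a black line. Dotted lines mark 2-fold. hsa-miR-15b-3p lay beyond 2-fold in both comparisons with subclone2 and at -0.13 in subclone1 against the parent.

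The 5p strands can be read as 1 seed class. Their summed counts were 3744, 1407 and 1558 in the parent, subclone1 and subclone2, or 474 CPM (459 to 489), 394 CPM (374 to 415) and 341 CPM (324 to 358). The sum was lower than the parent by 16.8% in subclone1, with a log2 ratio of -0.27 (-0.36 to -0.18), and by 28.0% in subclone2, with a log2 ratio of -0.47 (-0.56 to -0.39). With TMM factors the value for subclone2 was -0.30, close to the -0.33 of subclone1 on that scale. The make-up of the sum was nearly the same in each library. hsa-miR-16-5p supplied 66.2% of it in the parent (64.7 to 67.7) and 66.6% in subclone1 (64.1 to 69.1), compared with 64.9% in subclone2 (62.5 to 67.3). hsa-miR-15b-5p supplied 27.2%, 27.1% and 28.2%, hsa-miR-15a-5p 6.28%, 5.90% and 6.16%, and hsa-miR-195-5p 0.347%, 0.426% and 0.706%.

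These shares do not depend on how libraries are scaled. The ratio of hsa-miR-15b-5p to hsa-miR-16-5p differed from the parent by -0.01 on the log2 scale in subclone1 (-0.22 to 0.19) and by 0.09 in subclone2 (-0.11 to 0.28). The ratio of hsa-miR-15a-5p to hsa-miR-16-5p differed by -0.09 (-0.49 to 0.29) and 0.01 (-0.37 to 0.37). Each interval included 0, and differences up to its bounds would not have been detectable at this depth.

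**Figure D3:**
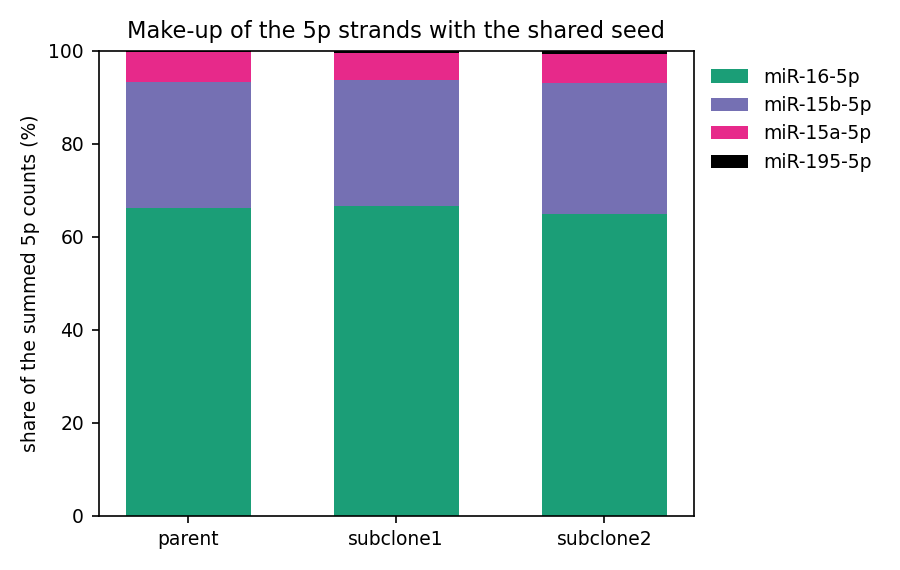
Share of each 5p strand in the summed 5p counts of a library, as stacked bars from 0 to 100%. The hsa-miR-16-5p part lay between 64.9% and 66.6% and the thin hsa-miR-195-5p part at the top was below 1% of the counts in every library.

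The strand balance within a hairpin also does not depend on scaling, and for miR-15b its value in subclone2 lay outside the intervals of the other libraries. The 3p strand made up 12.6% of the miR-15b counts in the parent (10.7 to 14.6) and 13.6% in subclone1 (10.5 to 17.2), compared with 6.18% in subclone2 (4.18 to 8.76). Each read of hsa-miR-15b-3p was matched by 6.97 reads of hsa-miR-15b-5p in the parent, 6.35 reads in subclone1 and 15.2 reads in subclone2. The log2 5p to 3p ratio was higher in subclone2 than in the parent by 1.10 (exact interval 0.51 to 1.77) and than in subclone1 by 1.24 (0.56 to 1.98), both called, and it differed between subclone1 and the parent by -0.14 (-0.61 to 0.36). With a pseudocount of 5 the difference from the parent was 0.95 and no longer called. Since hsa-miR-15b-3p was below 10 CPM in subclone2, the pair was kept through the libraries in which that strand was higher, so its positions and calls are descriptions. By size, the differences of miR-15b were at positions 2 of 31 and 3 of 33 strand pairs with both strands kept, and at 25 of 32 in subclone1 against the parent. Called in either direction were 6.45% of pairs in subclone2 against the parent, 12.1% in subclone2 against subclone1 and 15.6% in subclone1 against the parent. The subclone2 value rests on 29 reads of the 3p strand. Both comparisons with subclone2 share these reads, so they are not independent of each other.

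The neighbouring miR-16-2 hairpin did not show the same pattern. hsa-miR-16-2-3p made up 7.57% of its counts together with hsa-miR-16-5p in the parent (6.60 to 8.64) and 5.26% in subclone1 (3.95 to 6.84), compared with 8.17% in subclone2 (6.62 to 9.95). Since hsa-miR-16-5p also comes from MIR16-1, this share is not that of 1 hairpin. The log2 5p to 3p ratio differed from the parent by 0.55 in subclone1 (0.10 to 1.04) and by -0.12 in subclone2 (-0.50 to 0.27). Between the subclones it was lower in subclone2, by a log2 difference of -0.68 (-1.22 to -0.16). None of these differences was called. Both 3p strands of chromosome 3 had log2 ratios below 0 to the parent in both subclones, but their ratio to each other differed between libraries. hsa-miR-15b-3p relative to hsa-miR-16-2-3p was higher in subclone1 than in the parent by 0.68 on the log2 scale (0.03 to 1.33). In subclone2 the same quantity was lower than in the parent by a log2 difference of -1.14 (-1.89 to -0.45) and lower than in subclone1 by -1.82 (-2.71 to -0.98). Both of these differences rest on the same 29 reads of hsa-miR-15b-3p in subclone2.

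**Figure D4:**
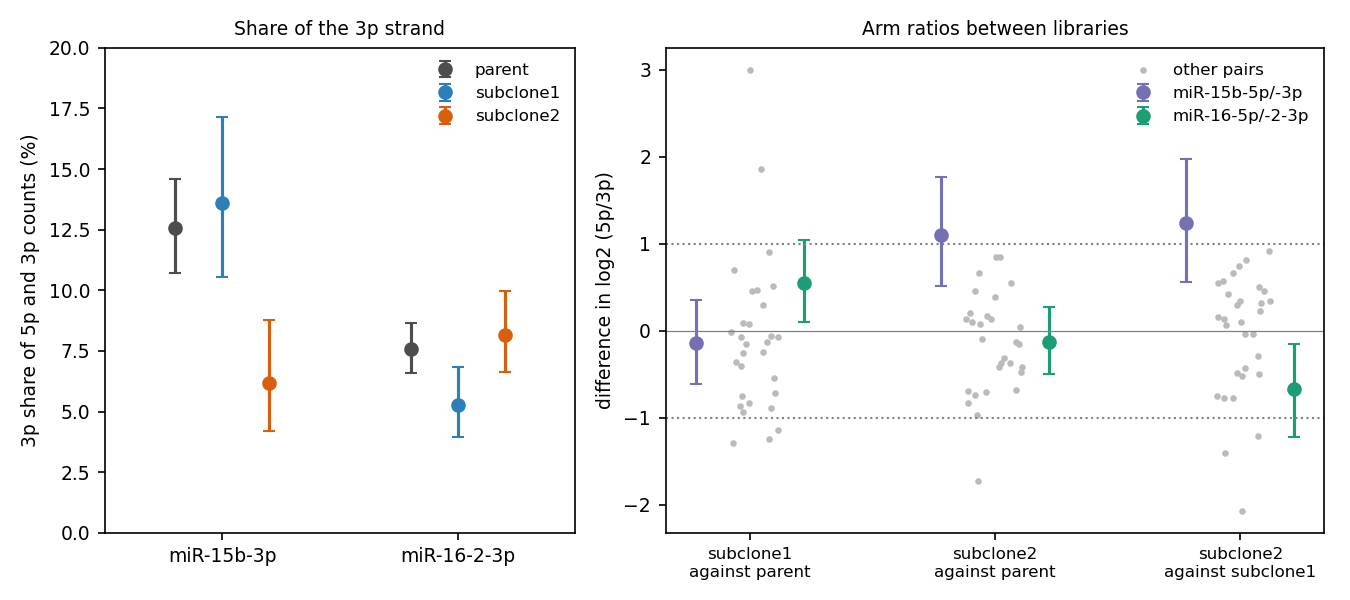
Left, share of the 3p strand in the summed 5p and 3p counts (%), with exact 95% binomial intervals; right, difference between libraries in the log2 5p to 3p ratio, with exact 95% intervals, for miR-15b, miR-16 and all other kept strand pairs (grey), with dotted lines at 2-fold. The miR-15b share was 6.18% in subclone2 and above 12% in the other libraries, and its difference passed 2-fold in both comparisons with subclone2 (0.95 against the parent with a pseudocount of 5).

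The names that belong to 1 locus were summed to compare the loci. Those of chromosome 3 (hsa-miR-15b-5p, hsa-miR-15b-3p and hsa-miR-16-2-3p) held 1366, 493 and 559 counts in the parent, subclone1 and subclone2, with log2 ratios to the parent of -0.32 (-0.48 to -0.17) in subclone1 and -0.50 (-0.64 to -0.36) in subclone2. Those of chromosome 13 (hsa-miR-15a-5p, hsa-miR-15a-3p and hsa-miR-16-1-3p) held 235, 84 and 96 counts, with ratios of -0.33 (-0.72 to 0.03) and -0.50 (-0.86 to -0.15). With TMM factors the chromosome 13 intervals were -0.78 to -0.03 in subclone1 and -0.69 to 0.02 in subclone2. Those of chromosome 17 (the strands of miR-195 and miR-497) held 49, 26 and 26 counts. Their ratios were 0.24 (-0.51 to 0.95) and -0.11 (-0.87 to 0.59), so no difference from the parent could be resolved. The values of chromosomes 3 and 13 lay close together in both subclones, but the intervals of chromosome 13 were wide. Its sums were nearly all hsa-miR-15a-5p, with 235, 83 and 96 counts. How reads with mismatches were divided between this strand and the more abundant hsa-miR-15b-5p is not given in the sources used here. Of the 3p reads that tell the miR-16 copies apart, copy 1 on chromosome 13 supplied 0 of 203 in the parent, with an exact upper bound of 1.80%. It supplied 1 of 53 in subclone1, or 1.89% (0.048 to 10.1), and 0 of 90 in subclone2, with an exact upper bound of 4.02%. These shares concern passenger strands and do not give the origin of hsa-miR-16-5p.

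On chromosome 17, hsa-miR-497-5p, which neighbours miR-195 and carries the same seed, had 36, 19 and 14 counts, or 4.56, 5.32 and 3.06 CPM. Its log2 ratio to the parent was 0.24 (-0.66 to 1.06) in subclone1 and -0.54 (-1.58 to 0.35) in subclone2, so no difference could be resolved, and hsa-miR-497-3p was at 0 counts. The listed names with the seed AGCAGCA numbered 6, and the other of them, hsa-miR-424-5p, was at 0 in each library. A wider list of 7 names for the group of miR-15 and miR-107, which includes hsa-miR-497-5p and hsa-miR-424-5p, held 4 detected names and 2 that passed the minimum. hsa-miR-103a-3p, an abundant relative with the seed shifted by a base, stood at 14080, 15873 and 13129 CPM, with log2 ratios of 0.17 and -0.10 to the parent. hsa-miR-107 stood at 8106, 9073 and 7939 CPM, with ratios of 0.16 and -0.03. Neither was called in any comparison, and in subclone1 both ratios had the opposite sign to those of the miR-15 and miR-16 guides. In subclone2 the sign of their sum depended on the scaling. Its log2 ratio to the parent was -0.07 on the library total, 0.10 with TMM factors and 0.07 with median-of-ratios factors. hsa-miR-503 was counted 1, 2 and 0 times, and hsa-miR-646 and hsa-miR-103b were at 0. By its seed, CAUAGCC, hsa-miR-103b is not a relative of the group, so its count of 0 says nothing about the group.

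For each kept strand, the 3 other miRNAs with the most similar pair of log2 ratios to the parent were found among 192 kept over all 3 libraries. The guides had close neighbours. hsa-miR-16-5p was nearest to hsa-miR-455-3p (distance 0.044 on the log2 scale), hsa-miR-532-5p (0.053) and hsa-miR-365a-5p (0.070). hsa-miR-15b-5p was nearest to hsa-miR-1292 (0.018), hsa-miR-92a-3p (0.043) and hsa-miR-455-5p (0.055), and hsa-miR-15a-5p to hsa-miR-125a-5p (0.020), hsa-miR-365a-5p (0.023) and hsa-miR-455-3p (0.059). The 3p strands had none as near. The nearest to hsa-miR-16-2-3p were hsa-miR-25-5p (0.20), hsa-miR-425-5p (0.23) and hsa-miR-505-5p (0.24), and to hsa-miR-15b-3p hsa-miR-146b-5p (0.43), hsa-miR-181a-2-3p (0.55) and hsa-miR-374b-5p (0.63). With 3 libraries these distances are a description only.

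Markers of liver and other cells were read in the same libraries. Of 6 hepatocyte miRNAs 3 were detected. hsa-miR-122-5p, the main hepatocyte miRNA, had 53, 19 and 18 counts, or 6.71, 5.32 and 3.94 CPM. hsa-miR-122-3p and both strands of hsa-miR-885 were at 0. hsa-miR-194-5p stood at 108, 271 and 263 CPM. The list's sum of 18642, 60522 and 69334 CPM was nearly all hsa-miR-192-5p, which was called higher in both subclones than in the parent. White blood cell markers summed to 0.759, 1.68 and 1.31 CPM, and stroma and vessel markers to 1.65, 2.80 and 0.657 CPM. Muscle markers summed to 7.59, 23.2 and 7.88 CPM, mostly of hsa-miR-1. It was called higher in subclone1 than in the parent (log2 ratio 1.68) and lower in subclone2 than in subclone1 (-1.61). hsa-miR-1 passed the minimum of 10 CPM only through subclone1, in which it was higher, and its part in the results was not tested. Red blood cells are rich in miR-16. Of their 4 markers, hsa-miR-451a was counted 0, 1 and 1 times and hsa-miR-144-3p 0 times, and the list summed to 16.3, 10.4 and 15.5 CPM, with nearly all of it hsa-miR-486-5p at 129, 35 and 70 counts. hsa-miR-486-5p, like hsa-miR-16-2-3p, was lowest in subclone1, but for both the intervals of the subclones overlapped. The part of hsa-miR-486-5p in the hsa-miR-16-2-3p result was not tested.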

How the data were processed

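The authors deposited 1 table of raw read counts per mature miRNA name for each library, 3 in all. The submitters' processing notes name CASAVA 1.4 and the build hg19, without saying what each was used for. Trimming, aligner, miRBase release and how multiply matching reads were counted are not given in the sources used here. The tables hold no coordinates. Sequences and positions came from RefSeq (GRCh38.p14) and overlapping genes from GENCODE release 29. RefSeq held 1576 of the 1921 listed names and 9 of 9 members.

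Counts were scaled to the library total (CPM). Ratios had 0.5 counts added, a minimum mean of 10 CPM over the libraries compared and exact 95% binomial intervals, with a call at 2-fold and an interval excluding 1. Strand ratios used exact conditional intervals of the odds ratio over 5p and 3p pairs (461 found) with both strands at the minimum. The reads carry no molecular identifiers here, so intervals and limits cover counting error only, which was smallest in the parent, the deepest library. Named miRNAs were all members, names with their seed, the wider group of miR-15 and miR-107, miR-497, marker lists and the 3 nearest miRNAs of each kept member. The members and lists were chosen with earlier results of these data known. Alternatives were scaling by TMM, by median-of-ratios or by a total lacking the 10 most abundant miRNAs, a pseudocount of 5, a minimum of 100 CPM or none, and fold thresholds of 1.5 and 4. The steps were tested on simulated data. Python 3.11.15, scipy 1.17.1, pandas 2.3.3, R 4.3.3, edgeR 4.0.16 (TMM) and DESeq2 1.42.0 (size factors) were used.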

Additional observations from a re-analysis of the deposited data

How the results depend on the processing

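No paired analysis was possible because every strain had 1 library, so no replicate could be left out either, and spread between cultures is unknown. Depth left hsa-miR-195-5p, hsa-miR-195-3p, hsa-miR-16-1-3p and hsa-miR-15a-3p with few or no counts, and a pseudocount of 5 took hsa-miR-195-5p in subclone1 against the parent from 0.09 to 0.44. Among ratios of single strands, scaling moved 8 values of hsa-miR-16-5p or hsa-miR-15b-5p beyond counting error, all in comparisons with subclone2. hsa-miR-15a-5p in subclone2 against subclone1 changed sign within its interval, from -0.15 to 0.09 with TMM factors. hsa-miR-15b-3p was not called at 4-fold in subclone2 against the parent or subclone1, and hsa-miR-16-2-3p was called at 1.5-fold in subclone1 against the parent. The summed 5p log2 ratio in subclone2 against the parent was -0.30 with TMM factors and -0.33 with median-of-ratios factors. In subclone2 against subclone1 it was 0.024 with TMM factors, 0.0054 with median-of-ratios factors and -0.064 without the 10 most abundant miRNAs, compared with -0.21 on the library total. These factors moved the median of all kept miRNAs by 0.17 and 0.15 in subclone2 against the parent and by 0.23 and 0.21 in subclone2 against subclone1, and leaving out the 10 most abundant moved the latter by 0.14. The miR-15b strand difference in subclone2 against the parent was 0.95 with a pseudocount of 5, below the threshold of 1, where 1 strand pair remained called there. In the order subclone1 against the parent, subclone2 against the parent and subclone2 against subclone1, miRNAs called numbered 25, 20 and 11. They numbered 7, 5 and 2 at a minimum of 100 CPM, 67, 75 and 33 with no minimum, 56, 50 and 36 at 1.5-fold and 3, 3 and 1 at 4-fold. Strand pairs called numbered 5, 2 and 4, and 1, 0 and 0 at a minimum of 100 CPM, 11, 13 and 9 with no minimum, 13, 11 and 12 at 1.5-fold and 1, 0 and 1 at 4-fold. These counts follow from the thresholds themselves. For the scaling shifts the cause was not tested.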
